A study of Bos taurus with 16 samples.

Results

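The spleens of 4 steers that gained and ate much were compared with those of 4 steers that gained and ate little, that is, with both traits moving in the same direction. These 8 animals, labelled high gain-high intake (high-high for short) and low gain-low intake (low-low), were taken by their labels from the 16 steers of the series, and the other 8 animals, 4 with high gain on low intake and 4 with low gain on high intake, were used only to estimate the spread and to place the 2 groups. All 16 were crossbred steers (castrated males) that began the trial at about a year of age, shared the same concentrate ration with free access to it for 84 days, and were chosen because they lay farthest from the average in gain and intake. No treatment was applied, and the groups were formed from what the animals gained and ate by themselves. Breed make-up differed between the groups, so breed and group cannot be told apart. Slaughter ran over consecutive days with 1 animal of each group a day, but nothing used here ties a day, a breed or an array strip to a single steer. The spleen was cut near its free end after a delay from bleeding, and the steers of a day were processed in series. It was measured as whole tissue, 1 Affymetrix Bovine 1.1 ST array for each steer. In such bulk RNA, fewer cells of a type and less RNA per cell cannot be told apart.

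Heat shock chaperones are proteins of the cytosol that hold and refold other proteins; HSP70 proteins work with J-domain partners (the DNAJ genes), with nucleotide exchange factors of the HSP110 kind and with HSP90, and many of these genes are switched on together by the factor HSF1 when proteins unfold. Immediate early genes are transcription factors and signals that switch on within minutes of a stimulus and need no new protein. The delay between bleeding and sampling also spanned minutes. Its part in the values of these genes and of the heat shock genes was not tested. Ribosome assembly, mitochondrial protein synthesis and the proteasome are housekeeping functions whose genes tend to be more active in cells that grow and divide, and the spleen holds dividing lymphocytes beside macrophages that recycle red blood cells.

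No feature passed the adjusted threshold between the 2 groups. Of 24997 features tested in limma, 0 (0%) had a Benjamini-Hochberg adjusted p under 0.05, the lowest adjusted p was 1, and every adjusted p of the genes named here for this comparison is 1. At an unadjusted p under 0.05 there were 1088 features (4.35%), which is no more than such a threshold lets through without any difference, so the count by itself is no sign of one. Of these, 520 were higher and 568 lower in the high-high animals, a split that became 627 higher and 453 lower when each array was centred on its own median. Over 18484 genes with a symbol, 2.24% were higher and 2.14% lower at an unadjusted p under 0.05, and the values of the 4 steers of one group all lay above those of the other group for 1.57% (higher) and 1.46% (lower). These shares are the background for the gene groups below, and some genes are counted in more than 1 group. Brighter genes leaned upward: among genes above the median level 56.7% were higher in the high-high animals, against 42.1% of the dimmer genes. The array medians lay between 8.24 and 8.37 on the log2 scale. The authors stretched the signal distribution before they summarised it, so a log2 difference here is one of that stretched scale. A gene with several transcript clusters (the probe sets of this array) is given by its brightest one.

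The tissue markers did not separate the groups. Smooth muscle markers of the capsule and trabeculae leaned highest, with all 4 measured genes higher in the high-high animals, a median difference of 0.67, and list means of 13.76 to 16.11 in these animals against 13.48 to 15.36 in the low-low animals. The ranges overlap widely (summed log2 level of the 4 genes 55.0 to 64.4 against 53.9 to 61.5), and the median difference was 0.27 without high-high replicate 3, 0.36 without low-low replicate 1 and 1.05 without high-high replicate 1. B cell, T cell, plasma cell, red pulp macrophage, neutrophil, erythroid and platelet markers overlapped between the groups as well, and red pulp macrophage markers were bright in all steers (list means of 16.17 to 17.11), as spleen should have them, whereas those of fat, pancreas, skeletal muscle and liver stayed between 7.16 and 8.23. Their part in the results below was not tested.

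Of the gene lists, heat shock chaperones had the largest share of members at an unadjusted p under 0.05, all of them higher in the low-low animals. By median difference and by share of members lower in the high-high animals, the immediate early genes below leaned further. Of 45 genes listed, 44 were measured; 31 were lower and 13 higher in the high-high animals, and 16 (36.4%, against 2.14% of all genes) were lower at an unadjusted p under 0.05, with 0 higher at that threshold. The groups did not overlap for 5, all lower. DNAJC5, a J-domain gene that the paper lists as differentially expressed, went the other way. Its array mean in the paper was higher in the high-high than in the low-low animals, and it is not among the members past the threshold here. The median difference was -0.32, against -0.0011 over all genes. The list had been chosen with earlier results of these animals known, and the genes move together within a steer, so the 16 members are not 16 separate observations.

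The largest difference of the group was in HSPH1, which encodes HSP110, the partner that frees HSP70 from its nucleotide. Its log2 values were 12.63, 13.22, 12.12 and 13.32 in the 4 high-high animals and 17.23, 13.97, 14.80 and 15.80 in the 4 low-low animals. The groups did not overlap, and the lowest low-low steer was also above all 12 other steers. The difference was -2.63 (standard error 0.57, limma unadjusted p = 0.00033), which is 6.18-fold on the stretched scale. HSPA1A, the inducible HSP70, had values of 13.28, 14.28, 15.27 and 16.11 against 17.57, 16.65, 16.32 and 17.26, again with no overlap and a difference of -2.21 (standard error 0.57). Near-identical copies of HSPA1A may share its probes, so this value can belong to more than 1 gene. DNAJB4, a J-domain partner of HSP70, had 11.14, 11.96, 11.09 and 11.78 against 13.69, 12.84, 13.09 and 14.90 (difference -2.14, standard error 0.50). For each of these 3 genes the exact two-sided permutation p was 0.0286, the smallest that 4 against 4 steers allow, and it was reached because the groups were fully apart.

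**Figure D1:**
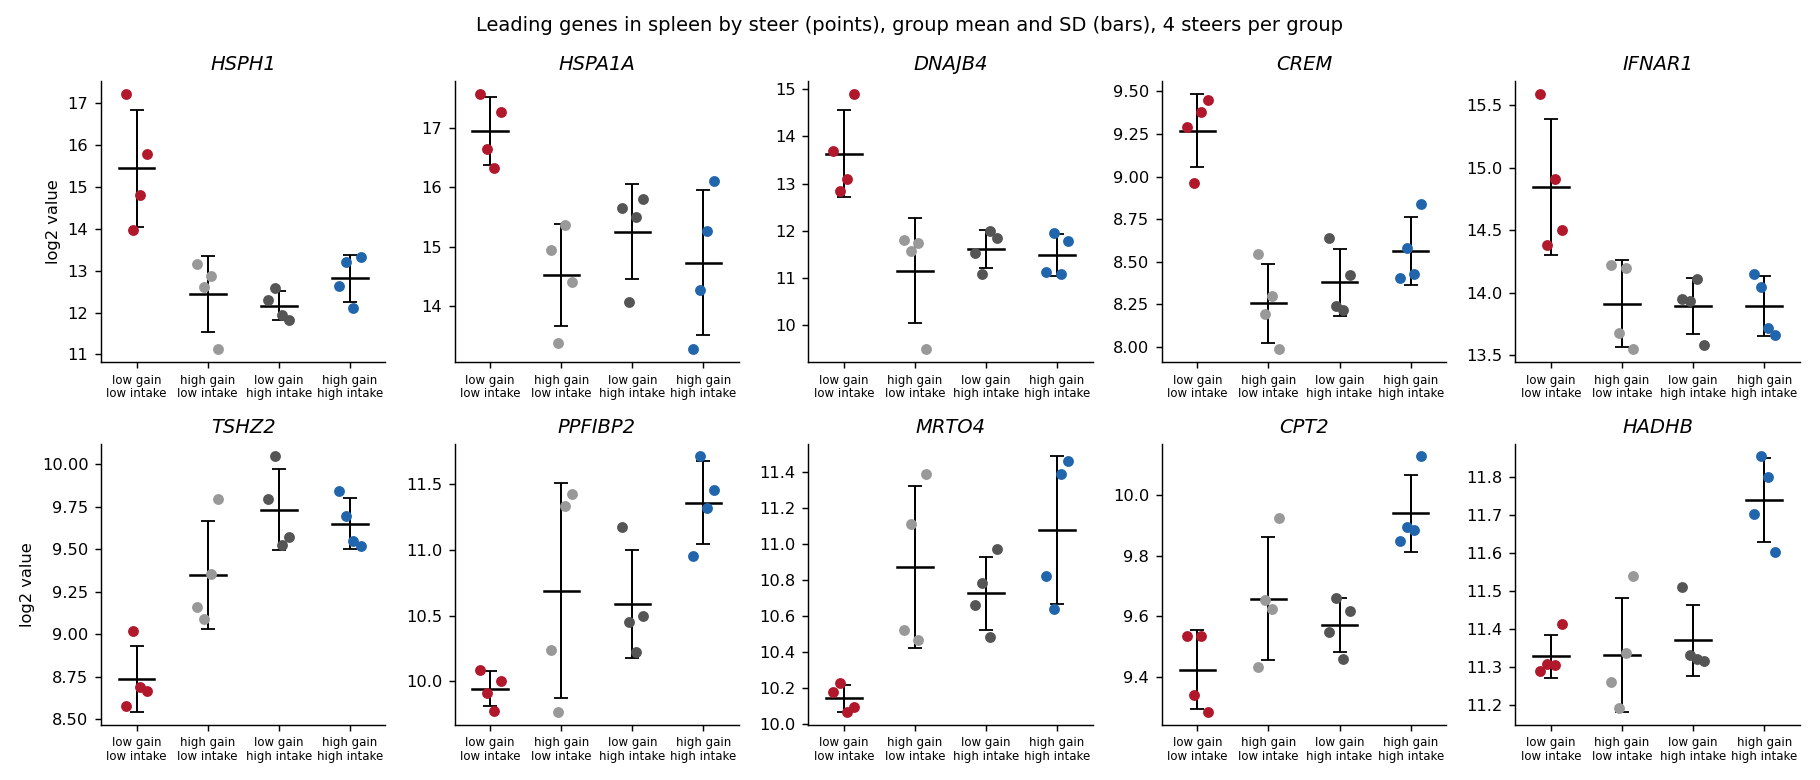
Log2 values of 10 genes in each of the 16 steers (points, replicates 1 to 4 from left to right within a group), with the mean (line) and SD (bars) of the 4 steers of a group. In the upper row, the 4 low-low animals lie above the 4 high-high animals for all 5 genes, and in the lower row below them.

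Other members showed the same direction with more overlap between steers. DNAJB1, the main J-domain partner of inducible HSP70, was at 11.39, 11.71, 12.02 and 13.61 in the high-high animals and at 14.62, 13.19, 13.15 and 15.15 in the low-low animals; high-high replicate 4 overlapped with 2 of the low-low animals. DNAJA4 had 9.03, 9.07, 8.86 and 9.37 against 11.39, 8.99, 10.48 and 10.81, where low-low replicate 2 lay within the other group. Without that steer the difference became -1.81 and its adjusted p 0.0156, the only named gene that passed the threshold in any of the alternatives, with the difference at -1.33 (standard error 0.35) over all steers. The steer left out was the one that went against the difference, so that adjusted p is no evidence of one. BAG3, a cochaperone that hands damaged proteins to autophagy, differed by -1.18 (standard error 0.38), and HSPA6, another inducible HSP70, by -1.28 (standard error 0.40). HSPA4, of the HSP110 kind, and HSP90AA1, the stress-responsive HSP90, differed less, by -1.01 and -0.74, but without overlap. In HSP90AA1 this rested on narrow gaps, since low-low replicates 2 and 3 (15.36 and 15.30) lay just above the highest high-high value of 15.24.

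The chaperones that are always abundant and the regulators differed less than the members named above, with HSPA8 close to the list median of -0.32. HSPA8, the constitutive HSP70, had a difference of -0.33 (standard error 0.16) from levels of 17.94 ± 0.30 and 18.27 ± 0.30 (SD, n = 4 in each group), and HSP90AB1, the constitutive HSP90, of -0.05 (standard error 0.21). HSF1, the factor that switches the group on, differed by 0.06 (standard error 0.35), and HSF2 by -0.16 (standard error 0.21). The small heat shock genes HSPB1 and CRYAB spanned both groups, with differences of -0.32 (standard error 0.39) and -0.21 (standard error 0.55). FKBP5, an immunophilin of HSP90 complexes that glucocorticoids induce, was the member that leaned farthest the other way, at 17.16, 17.26, 16.04 and 16.52 against 15.81, 15.44, 16.23 and 15.79 (difference 0.93, standard error 0.74).

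**Figure D2:**
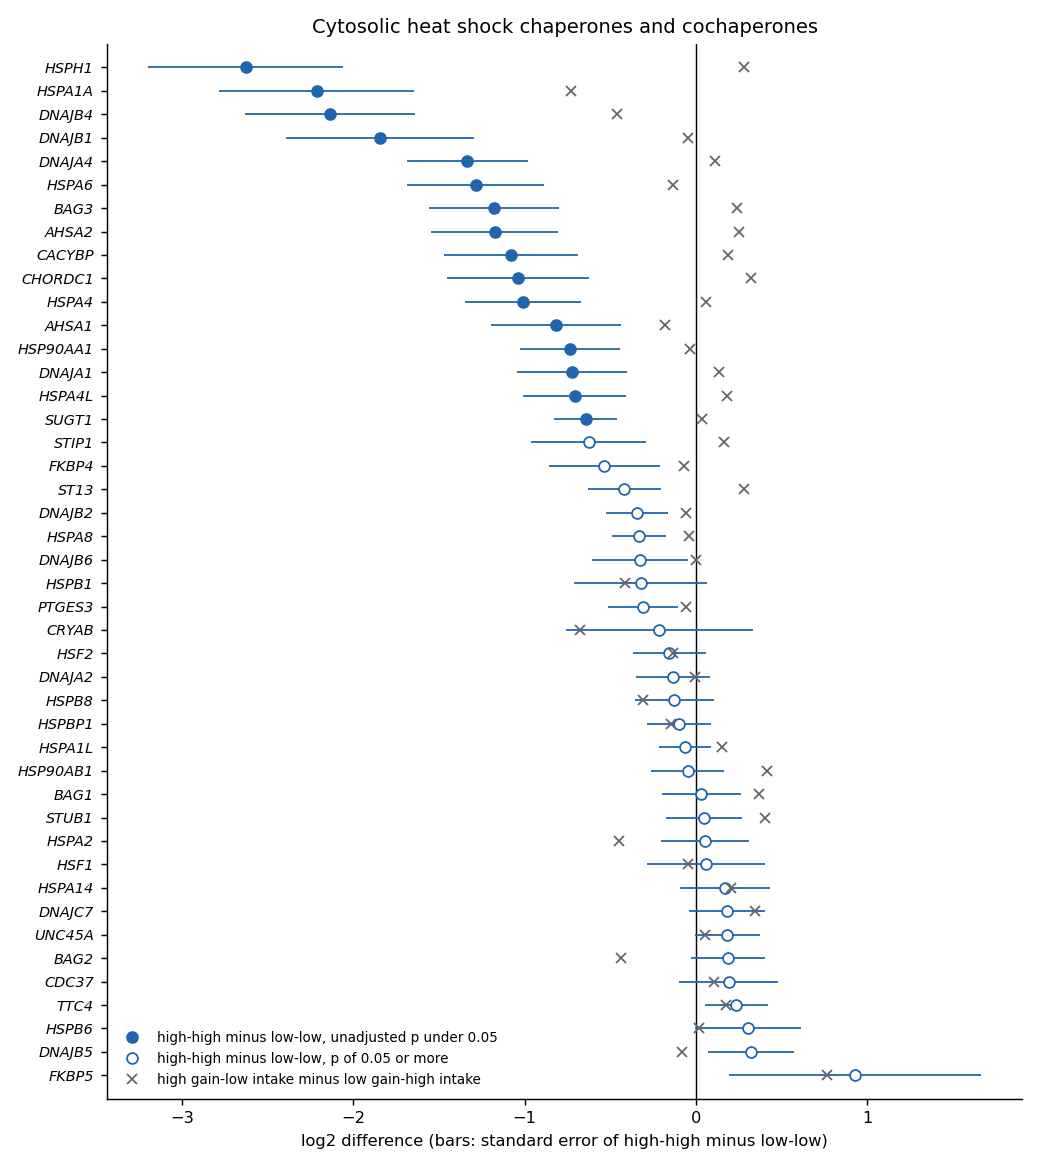
Log2 difference of each of the 44 measured heat shock genes, high-high minus low-low (circles, filled at an unadjusted p under 0.05, with the standard error as a bar), beside the high gain-low intake minus low gain-high intake difference (crosses). The 16 filled circles run from -2.63 for HSPH1 to -0.64 for SUGT1, while the crosses have a median of 0.03.

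In most of the 16 heat shock members at an unadjusted p under 0.05, the mean of the other groups did not lie between the 2 compared groups. On a scale on which the low-low mean is 0 and the high-high mean is 1, the mean of the other 2 groups had a median position of 1.20 over the 16 members, that is, past the high-high level, where all 396 genes that were lower at the same threshold had a median position of 0.64. Inside the interval lay HSPA4L, near the middle at 0.46, and HSPA1A (0.93) and DNAJB1 (0.97), near the high-high level. The low-low group had the highest of the 4 group means for 16 of 16 members, and for 351 of those 396 genes, since genes chosen for low-low above high-high mostly have low-low on top. The interaction of gain and intake had an unadjusted p under 0.05 for 15 of the 16, all but HSPA4L. Beside this stand 4.66% of all genes and 20.5% of those 396. The study names many of these chaperones for that interaction on the same arrays and the list was chosen with this known, so the 15 are a description and no independent evidence. No interaction passed after adjustment over all features, where the lowest adjusted p was also 1. High gain-low intake minus low gain-high intake, measured on the other 8 steers, had a median of 0.03 over the list. The difference between the 2 comparisons did not pass for any feature (lowest adjusted p 0.548).

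Within the low-low group the 4 animals were unequal. Replicate 1 had the highest value of the 4 for 11 of the 16 members and lay above all high-high animals for all 16. Replicate 4 was highest for the other 5 and above all high-high animals for 13, whereas replicates 2 and 3 were above them for 9 and 7. As list means, low-low replicates 1 to 3 stood at 12.29, 11.59 and 11.61, with replicate 4 between the first and the last of these, and the high-high animals at 11.18, 11.31, 11.30 and 11.72, so high-high replicate 4 lay inside the range of the other group. The 8 steers of the other groups lay between 11.05 and 11.33. Without low-low replicate 1, the median difference was -0.19 and 10 members were at an unadjusted p under 0.05.

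Immediate early genes leaned the same way, with another order of the animals. Of 31 measured, 27 were lower in the high-high animals, with a median difference of -0.42. At an unadjusted p under 0.05, 6 were lower (19.4%, against 2.14% of all genes) and 0 higher. These were PTGS2, NR4A3, FOSB, NR4A2, ATF3 and BTG2. PTGS2, the inducible cyclooxygenase that makes prostaglandins, had values of 7.22, 8.02, 7.99 and 8.08 against 9.24, 8.10, 10.92 and 12.53, without overlap but with 8.08 and 8.10 as the closest steers (difference -2.37, standard error 0.71). The nuclear receptor genes NR4A3 and NR4A2 differed by -2.27 (standard error 0.93) and -1.68 (standard error 0.53). In NR4A3 high-high replicate 4, at 12.88, stood well above its group (8.20 to 9.71) and inside the other, and in NR4A2 low-low replicate 4, at 12.16, stood above the rest. The list means were 10.23, 10.23, 10.89 and 11.57 in the low-low animals, so replicates 3 and 4 carried the lean, and low-low replicate 1, highest in heat shock, was among the lower. In the high-high animals they were 9.83, 9.71, 10.15 and 10.82, and low gain-high intake replicate 4 stood at 11.27. Leaving out high-high replicate 4 raised the number of members at an unadjusted p under 0.05 to 12, and leaving out high-high replicate 1 or 2 or low-low replicate 4 reduced it to 3, with the median at -0.21 without low-low replicate 4 and -0.27 without high-high replicate 2.

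**Figure D3:**
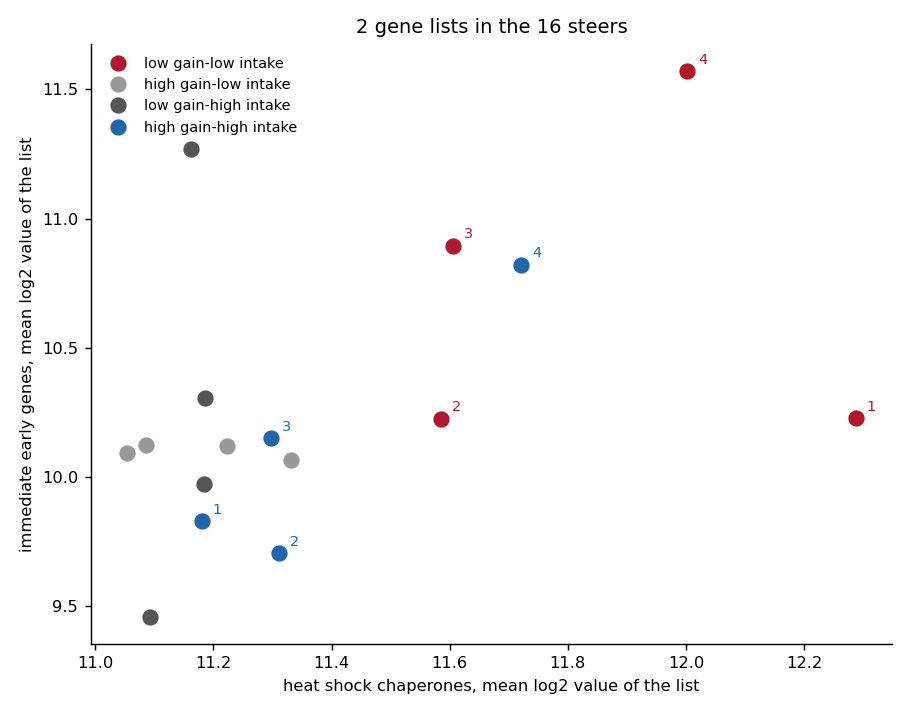
Mean log2 value of the 44 heat shock genes (horizontal axis) against that of the 31 immediate early genes (vertical axis) in the 16 steers, with the replicate number beside the steers of the compared groups. All 4 low-low animals lie at 11.59 or above in heat shock, beside high-high replicate 4 at 11.72, but they span 10.23 to 11.57 in immediate early genes.

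Inflammatory genes held the largest difference of any named gene. CCL2, the chemokine that draws monocytes, was at 10.61, 9.14, 10.39 and 13.10 in the high-high animals and at 14.98, 11.61, 15.45 and 15.80 in the low-low animals. The difference was -3.65 (standard error 1.17), yet low-low replicate 2 lay below high-high replicate 4, and the exact permutation p was 0.0571. Over the 30 inflammatory cytokines and chemokines, 26 were lower and 4 higher in the high-high animals. At an unadjusted p under 0.05, 4 were lower (13.3%, against 2.14% of all genes) and 0 higher. These were CCL2, PTGS2, PLAUR and CXCL5. PTGS2 is also counted among the immediate early genes and PLAUR among the coagulation genes, so these are not separate observations. CXCL5, a neutrophil chemokine, was nearly constant in the high-high animals (8.38 to 8.43) and ran from 8.61 to 9.30 in the others. The median difference of the list, -0.17, was -0.07 without high-high replicate 2 and -0.08 without low-low replicate 4. The summed log2 level of the 5 neutrophil markers, 46.5 to 55.8 against 44.9 to 57.3, overlapped, and its part in this difference was not tested.

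**Figure D4:**
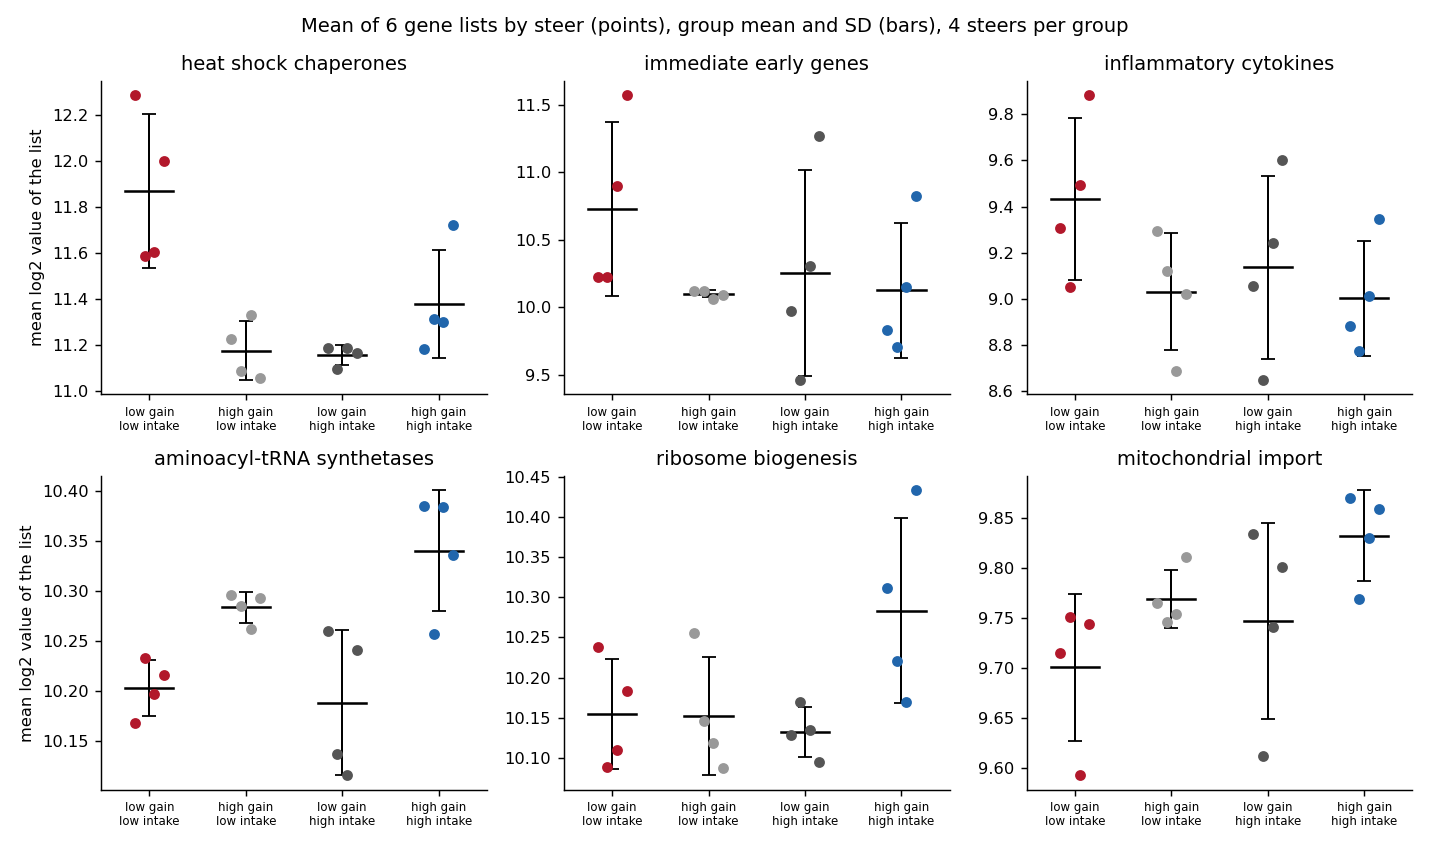
Mean log2 value of 6 gene lists in each steer (points, replicates 1 to 4 from left to right within a group), with the mean (line) and SD (bars) of the 4 steers of a group. For heat shock chaperones the low-low group lies apart from the 8 steers of the middle groups, which span 11.05 to 11.33, whereas for mitochondrial import the middle groups (9.61 to 9.83) overlap both of the others.

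Among regulators of transcription and splicing, a few genes were fully apart. CREM, a cAMP-responsive transcription factor that also yields a short early repressor, had 8.41, 8.58, 8.43 and 8.84 in the high-high animals and 9.29, 8.96, 9.38 and 9.45 in the low-low animals, a difference of -0.70 (standard error 0.16). All 12 other steers lay below the lowest low-low animal. The paper's quantitative PCR on the same animals did not repeat this: its CREM mean was lower in the low-low than in the high-high group. In that measurement HSPH1, DNAJB1, BAG3, TSHZ2 and HADHB kept the direction of the arrays between these groups. The paper marks HSPH1, DNAJB1 and BAG3 as associated with group by PCR, but not CREM, TSHZ2 or HADHB. DNAJC5, which it also marks, changed direction: higher in the high-high animals on the arrays and lower by PCR. The other cAMP genes went both ways (17 lower and 15 higher of 32), with GPR65, an acid-sensing receptor, lower (-0.87, standard error 0.27) and ADCY5, an adenylyl cyclase, higher (0.75, standard error 0.24). Of 20 CLK kinases and SR splicing factors, 15 were lower and 5 higher. At an unadjusted p under 0.05, 4 were lower (20%, against 2.14% of all genes) and 0 higher. All 4 were without overlap, where 1.46% of all genes were lower without overlap. These were CLK1 (-0.90, standard error 0.29), CLK4 (-0.66, standard error 0.25), TRA2A (-0.53, standard error 0.20) and TRA2B (-0.46, standard error 0.13, with the closest steers both at 15.10). CLK kinases phosphorylate SR proteins, of which the TRA2 proteins are relatives. For these 4 the other groups stood at a median position of 1.13, beside 0.64 over all lower genes. The list median of -0.13 became -0.08 without low-low replicate 1, which left 2 members at that threshold, and also without high-high replicate 4.

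Single genes of other stress and lipid pathways leaned toward the low-low animals. In the ATF4 integrated stress response, 10 of 22 were lower and 12 higher; the transcription factors ATF3 (-1.23, standard error 0.41) and DDIT3 (-0.47, standard error 0.19), the mitochondrial folate enzyme ALDH1L2 (-0.95, standard error 0.26) and the cystine transporter SLC7A11 (-0.50, standard error 0.22) were lower at an unadjusted p under 0.05, and ASNS and MTHFD2, which make asparagine and one-carbon units, were higher (0.34 and 0.46). The 4 lower became 2 without high-high replicate 2 or low-low replicate 1 or 4, and the 2 higher became 0 without high-high replicate 1 and 1 without high-high replicate 3 or 4, low-low replicate 1 or 4 or high gain-low intake replicate 4. With all steers, the 4 lower were 18.2% of the list (against 2.14% of all genes) and the 2 higher 9.09% (against 2.24%). ATF3 is also counted among the immediate early genes. SLC5A3, an inositol transporter of osmotic stress, differed by -1.10 (standard error 0.35), with low-low replicate 2 (13.56) inside the range of the high-high animals (13.11 to 14.35). Its list of 9 genes had a median of -0.32, which was -0.08 without high-high replicate 4 and -0.13 without low-low replicate 4. The means of that list did not overlap, at 10.71 to 10.88 in the high-high animals and 11.06 to 11.26 in the low-low animals. HSPA4L, its other member at an unadjusted p under 0.05, is also counted among the heat shock genes. INSIG1, which holds back sterol synthesis, was lower (-1.36, standard error 0.47), while 17 of the 20 sterol genes measured leaned higher by small amounts. LPIN1, a phosphatidate phosphatase that is also a coactivator, was lower (-0.72, standard error 0.23). In the paper's quantitative PCR on the same animals its low-low mean was slightly below the high-high mean, the other direction.

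Interferon signaling gave 2 genes lower at an unadjusted p under 0.05 (8% of the list, against 2.14% of all genes), inside a list that leaned higher. IFNAR1, a chain of the type I interferon receptor, had 14.15, 14.05, 13.72 and 13.66 against 15.59, 14.38, 14.91 and 14.50, and ZC3HAV1, an antiviral protein that binds viral RNA, 15.23, 15.06, 15.00 and 15.18 against 15.95, 15.43, 16.52 and 15.94. Neither overlapped, with differences of -0.95 (standard error 0.24) and -0.84 (standard error 0.24). The 25 type I interferon genes measured had a median of 0.29 with 18 higher, and 0 were higher at an unadjusted p under 0.05; high-high replicate 3 stood at a list mean of 11.74 while its group mates were at 10.41 to 10.73 and the low-low animals at 10.50 to 10.92. Without that steer the median was -0.09. High gain-low intake replicate 2, outside the comparison, stood at 14.39, and 2 genes were higher at that threshold without it. The MHC class II gene BOLA-DQB was either low or high in a steer, at 8.68 to 9.03 in the high-high animals and at 14.31, 8.77, 13.65 and 8.85 in the low-low animals. With 2 of 4 animals high, its difference of -2.54 had a standard error of 1.31.

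Coagulation and fibrinolysis genes, mostly at low levels in spleen, leaned lower with exceptions. Of 33 measured, 23 were lower and 10 higher in the high-high animals. At an unadjusted p under 0.05, 5 were lower (15.2%, against 2.14% of all genes) and 1 higher. F3, the tissue factor that starts clotting, differed by -0.59 (standard error 0.25), PLAUR, the urokinase receptor, by -1.09 (standard error 0.41) and SERPINC1, antithrombin, by -0.57 (standard error 0.21), whereas F5, the cofactor of thrombin formation, was higher by 0.44 (standard error 0.15). F3 and F5 were both without overlap. The number of lower members was 2 without low-low replicate 4 and 3 without high-high replicate 2 or 3 or low-low replicate 1 or 3, and 2 were higher without high-high replicate 3, low-low replicate 1 or low gain-high intake replicate 1.

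Of the remaining brighter genes with the smallest p in this direction, SLK, a kinase of the cell skeleton, differed by -1.65 (standard error 0.43), N4BP2L1 by -1.03 (standard error 0.25), HACD4, an enzyme of very long fatty acid elongation, by -0.86 (standard error 0.23) and CNOT6L, a deadenylase that shortens mRNA tails, by -0.53 (standard error 0.14). HACD4 was the exception in shape. It had 10.52, 10.44, 10.53 and 10.29 in the high-high animals, below all 12 other steers, and the other groups stood at position 0.13, at the low-low level.

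On the upward side, TSHZ2, a zinc finger homeobox factor, had the smallest p of all features (6.97e-05), with 9.84, 9.70, 9.54 and 9.52 against 8.58, 9.02, 8.69 and 8.67, a difference of 0.91 (standard error 0.17). All 4 low-low animals lay below the 12 other steers. PPFIBP2, a liprin of cell junctions, had 10.96, 11.71, 11.32 and 11.46 against 10.09, 9.91, 9.77 and 10.01 (1.42, standard error 0.32), and both of its transcript clusters leaned the same way. LONP2, a protease of the peroxisome, was higher by 0.81 (standard error 0.19), GPATCH1, a splicing protein, by 0.59 (standard error 0.13), SYT11, a synaptotagmin of membrane traffic, by 0.52 (standard error 0.13) and PRORSD1 by 0.58 (standard error 0.14), all without overlap. Of all 414 genes higher at an unadjusted p under 0.05, 6.52% also had an interaction p under 0.05, beside 4.66% of all genes and 20.5% of the lower genes; the difference of these shares was not tested.

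Ribosome assembly leaned upward across many members by small steps. Of 98 genes measured, 72 were higher and 26 lower in the high-high animals, and 7 were higher at an unadjusted p under 0.05 (7.14%, against 2.24% of all genes and 3.25% of those above the median level), with 0 lower. MRTO4, which places a ribosomal stalk precursor on the large subunit, had 10.82, 10.64, 11.39 and 11.46 against 10.18, 10.23, 10.07 and 10.10, a difference of 0.94 (standard error 0.22), and again the low-low animals were below all 12 others. POLR1B, the second largest subunit of RNA polymerase I, was higher by 0.60 (standard error 0.18), RCL1, which cuts the precursor rRNA, by 0.56 (standard error 0.16), DDX47, an rRNA helicase, by 0.49 (standard error 0.13) and UBTF, the factor that opens rDNA, by 0.43 (standard error 0.14), all without overlap. For the 7 members the other groups stood at a median position of 0.49, midway between them, beside 0.56 over all genes higher at that threshold. As list means, the groups touched: 10.31, 10.22, 10.17 and 10.43 against 10.24, 10.09, 10.11 and 10.18. The list median of 0.13 was 0.07 without high-high replicate 4. The ribosomal proteins themselves showed no member at this threshold in either direction (62 measured, 42 higher and 20 lower).

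Genes that modify and charge tRNA went the same way. Of 54 tRNA and rRNA modification genes, 33 were higher and 21 lower, where 49.7% of all genes and 56.7% of those above the median level were higher. At an unadjusted p under 0.05, 6 were higher (11.1%, against 2.24% of all genes). Among them were RPUSD2 (0.50, standard error 0.12), a pseudouridine synthase, and QTRT2 (0.55, standard error 0.15), which helps to insert queuine. Without low-low replicate 3 the number at that threshold was 3. The aminoacyl-tRNA synthetases had 26 of 34 higher. A single member (2.94%, against 2.24% of all genes) was higher at that threshold, TARS1, which charges threonine tRNA. Its values were 14.19, 14.03, 14.19 and 14.16 against 13.48, 13.77, 13.46 and 13.52, a difference of 0.59 (standard error 0.17). The synthetase list had means of 10.38, 10.26, 10.38 and 10.34 against 10.17, 10.23, 10.20 and 10.22, with no overlap between the 2 groups. Of 53 lists read, mitochondrial import and, in the other direction, osmotic genes were apart as well. Among so many lists some may be apart without any difference. The high gain-low intake animals lay between 10.26 and 10.30 and the low gain-high intake animals between 10.12 and 10.26. The number of synthetases at that threshold was 2 or 3 when some steers were left out (3 without high-high replicate 1 or 2; 2 without high-high replicate 4, or replicate 2 of any other group).

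Mitochondrial genes leaned upward by list, with few members past the threshold. For scale, 56.7% of all genes above the median level were higher in the high-high animals. Of 77 mitochondrial ribosome genes 58 were higher. At an unadjusted p under 0.05, 7 were higher (9.09%, against 2.24% of all genes) and 0 lower. MRPS9 (0.45, standard error 0.14), MRPS14 (0.38, standard error 0.13), MRPL37 (0.36, standard error 0.16) and MRPL27 (0.43, standard error 0.18) were without overlap. In MRPL27 the low gain-high intake mean of 9.84 was above the high-high mean of 9.60. The number higher at that threshold was 2 without high-high replicate 4 and 4 without high-high replicate 3 or low-low replicate 4. Of 30 protein import genes 24 were higher, including TIMM50, a receptor of the inner membrane, with 10.05, 10.13, 10.27 and 10.08 against 9.53, 9.76, 9.47 and 9.63 (0.53, standard error 0.17). The list means of import, 9.87, 9.77, 9.83 and 9.86 against 9.72, 9.75, 9.59 and 9.74, did not overlap, the closest steers being 9.77 and 9.75. MPC1, part of the carrier that lets pyruvate into mitochondria, was higher by 0.87 (standard error 0.23), without overlap. Oxidative phosphorylation had 50 of 74 genes higher. At the threshold 1 member passed in each direction (1.35% each, against 2.24% higher and 2.14% lower of all genes). These were NDUFS6 (0.79, standard error 0.26) and COX7A2 (-0.46, standard error 0.17). The number higher was 7 without high-high replicate 2, 3 without high-high replicate 1, low-low replicate 4 or low gain-high intake replicate 2, and 2 without low-low replicate 2 or low gain-high intake replicate 4, and none was lower without high-high replicate 4.

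Among fatty acid oxidation genes, 2 enzymes (10%, against 2.24% of all genes) were higher at an unadjusted p under 0.05, both without overlap. CPT2, which re-forms acyl-CoA inside the mitochondrion, had 9.85, 9.89, 9.89 and 10.13 in the high-high animals and 9.53, 9.34, 9.54 and 9.28 in the low-low animals (0.52, standard error 0.12). HADHB, the thiolase subunit of the trifunctional protein, had 11.70, 11.85, 11.80 and 11.60 against 11.29, 11.31, 11.31 and 11.41 (0.41, standard error 0.11), and its lowest high-high value lay above all 12 other steers. The other groups stood at position 0.05 for HADHB, at the low-low level, and at 0.37 for CPT2. Of the 20 genes of the pathway 13 were higher and 7 lower, with a median of 0.11 that was 0.07 without low-low replicate 2. Among all genes above the median level, 56.7% were higher, so this split is near the background.

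Proteasome and proliferation genes leaned upward too. Members higher at an unadjusted p under 0.05 made up 11.8% and 8.82% of these 2 lists, against 2.24% of all genes. Of all genes above the median level, 56.7% were higher in the high-high animals, and 3.25% were higher at that threshold. All 34 proteasome genes were above the median level, 26 were higher in the high-high animals, and 4 (PSMC3, PSMD5, PSMC5 and PSMD1) were higher at an unadjusted p under 0.05 with 0 lower; the median of 0.23 was 0.13 without high-high replicate 4, and the number was 1 without high-high replicate 3 or low-low replicate 1 or 3 and 2 without high-high replicate 4 or low-low replicate 2. MKI67, a protein of dividing cells, was at 13.51, 13.16, 13.68 and 13.44 against 12.90, 12.94, 12.51 and 12.58 (0.71, standard error 0.28), and 27 of 34 proliferation genes were higher, of which CDC20, CHAF1A and MKI67 passed that threshold. This number was 1 without low-low replicate 4, 5 without low-low replicate 1, 6 without high gain-low intake replicate 1 and 8 without high-high replicate 2. PLIN2, a coat protein of lipid droplets, was higher by 0.73 (standard error 0.27) and ACACA, which makes malonyl-CoA for fatty acid synthesis, by 0.31 (standard error 0.13). Of the 22 lipin and triglyceride synthesis genes, 15 were higher and 7 lower. At an unadjusted p under 0.05, 3 were higher (13.6%, against 2.24% of all genes) and 1 lower (4.5%, against 2.14%), LPIN1 named above. The 3 higher became 1 without high-high replicate 1 or low-low replicate 1 or 3, and the list median of 0.09 was 0.0026 without high-high replicate 4, 0.04 without low-low replicate 1 and 0.16 without high-high replicate 2. In the insulin and growth factor axis, TBC1D1, which holds back glucose transporter traffic, was higher by 0.67 (standard error 0.17). GSK3A, a kinase of glycogen control, was higher by 0.63 (standard error 0.18), and both were without overlap. Of the 40 genes listed, 25 were higher and 15 lower, near the 56.7% higher among all genes above the median level.

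The largest difference on the upward side was in GNLY, a granule protein that cytotoxic lymphocytes release. Its values were 10.21, 10.22, 11.29 and 12.61 in the high-high animals and 8.64, 10.47, 6.96 and 8.40 in the low-low animals, a difference of 2.46 (standard error 0.89). Low-low replicate 2 lay inside the other group. The 7 natural killer and cytotoxic cell markers were read beside it: list means were 9.79 to 10.01 in the high-high animals and 9.18, 10.26, 9.50 and 9.44 in the low-low animals, 5 of 7 were higher, and TBX21, their transcription factor, was higher by 0.66 (standard error 0.21), the only one at an unadjusted p under 0.05, with 4 without low-low replicate 2 and 2 without high-high replicate 2. The summed log2 level of the 7 markers ranged from 68.5 to 70.1 and from 64.2 to 71.8, and their part in the GNLY difference was not tested. LOC780876 (1.70, standard error 0.62), PPFIBP2 (1.42, above), GPRC5B, an orphan receptor (1.35, standard error 0.41), and ETV5, an ETS transcription factor (1.29, standard error 0.54), followed in size.

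MicroRNA genes leaned downward as a class at dim levels. Of 554 measured, 370 were lower and 184 higher in the high-high animals, with a median difference of -0.08. At an unadjusted p under 0.05, 30 were lower (5.4%, against 2.14% of all genes and 2.21% of the dimmer genes). At that threshold 3 were higher (0.54%, against 2.24% of all genes and a smaller share of the dimmer genes). Whether these probe sets read mature microRNA or longer precursor or host transcripts was not tested. The level of 389 of them was below the median of all features, where 42.1% of all genes were higher. MIR26B, with 8.06, 7.80, 8.08 and 8.12 against 8.55, 8.50, 8.40 and 8.27, was without overlap. The number of lower microRNA genes changed strongly with single steers, from 11 without high-high replicate 3 to 42 without low-low replicate 2, and it was 18 and 17 without low-low replicates 3 and 4. The number higher lay between 1 (without low-low replicate 1) and 8 (without low-low replicate 3), and was 6 without high-high replicate 1 or 2 and 5 without high-high replicate 4, low-low replicate 2 or high gain-low intake replicate 4.

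**Figure D5:**
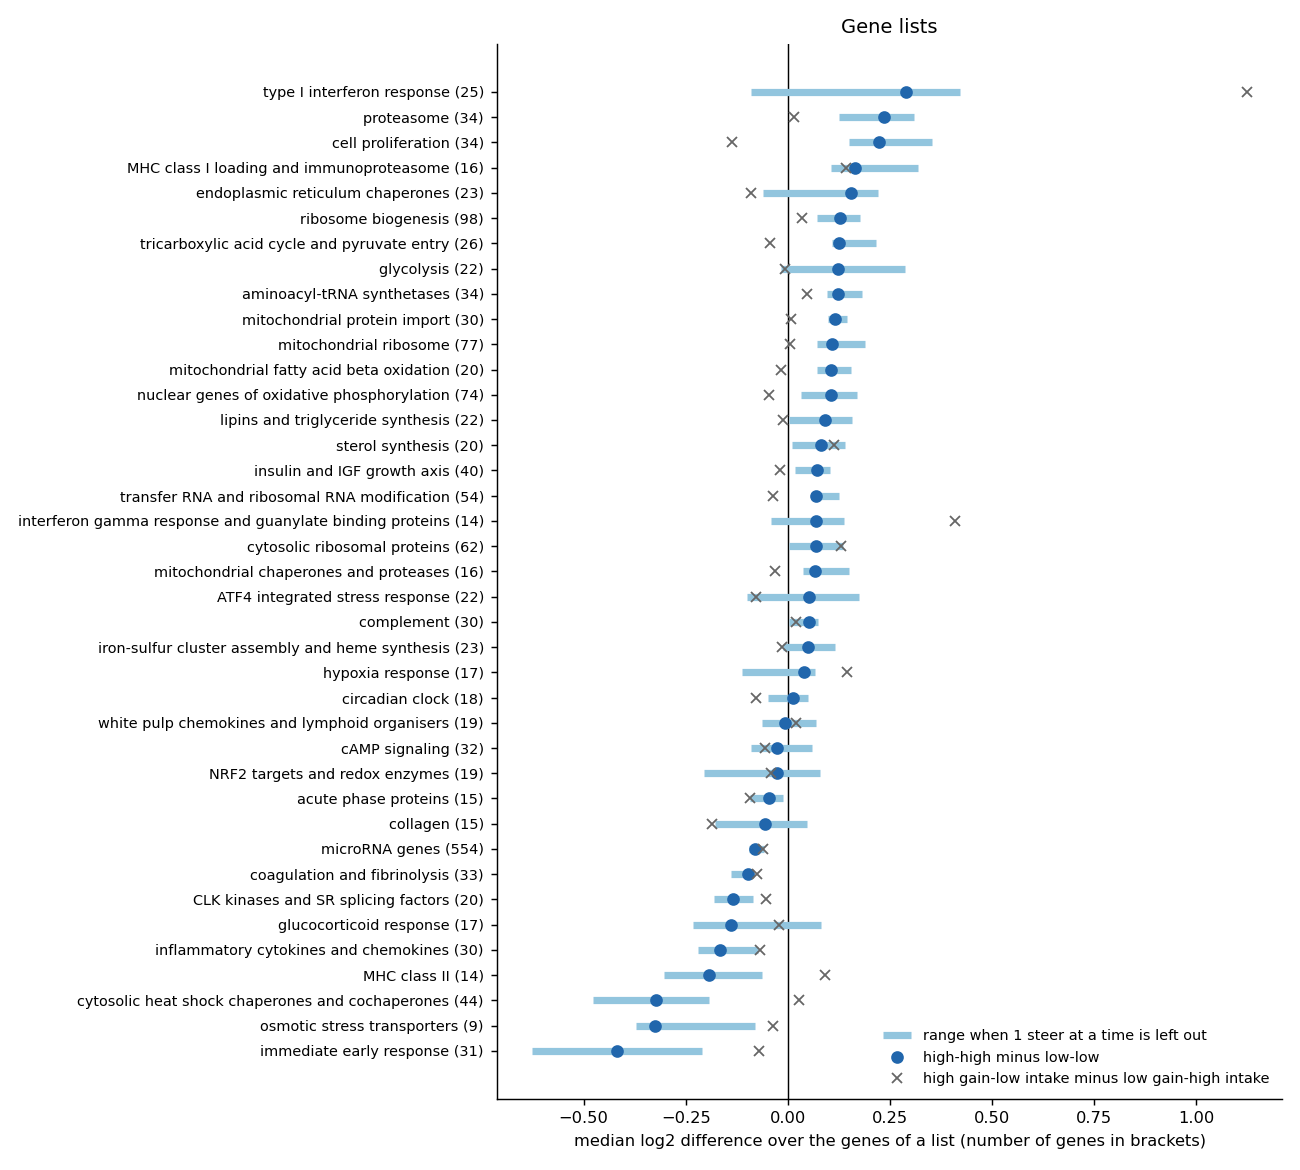
Median log2 difference, high-high minus low-low, over the measured genes of each list drawn (circles), its range when any 1 steer is left out (bars), and the median of high gain-low intake minus low gain-high intake (crosses). The cell type marker lists and the 3 measured GIMAP genes are not drawn. Immediate early (-0.42), osmotic (-0.32) and heat shock genes (-0.32) stand lowest; the bars of type I interferon, glycolysis and endoplasmic reticulum chaperones are among those that cross 0.

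For several gene groups no member passed the unadjusted threshold, or the direction hung on 1 steer. Endoplasmic reticulum chaperones, the relatives of the heat shock genes that fold secreted proteins, had 19 of 23 higher and 0 past the threshold, and their median of 0.15 became -0.06 without high-high replicate 4, whose list mean of 13.38 stood far from the 12.61 to 12.69 of its group, and 0.07 without low-low replicate 3. Glycolysis had 15 of 22 higher and 0 past the threshold, with a median of 0.12 that was -0.02 without the same steer, 0.04 and 0.06 without high-high replicate 1 and low-low replicate 3, and 0.29 without high-high replicate 2. Complement, circadian clock and cytosolic ribosomal genes also had 0 members past the threshold in either direction. Glucocorticoid response genes had 8 of 17 higher, and their median of -0.14 ran from -0.23 without low-low replicate 1 to 0.08 without low-low replicate 4.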

How the data were processed

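RNA from the spleen of 16 steers was hybridised to Affymetrix Bovine 1.1 ST arrays. The deposited log2 values are those the authors made in Affymetrix Expression Console with a method that stretches and summarises probe signals per transcript cluster (build not given in the sources used here). Of 26773 clusters, 24997 were tested; the 1776 whose IDs precede those of annotated genes were not. One gene symbol was given for 18841, several for 334, and 5822 were not listed; 18053 matched RefSeq by gene ID. In limma 3.58.1 (R 4.3.3), group means were fitted over all 16 arrays, without covariates, with Benjamini-Hochberg adjustment over all features. Exact two-sided permutation tests used the 70 divisions of 8 steers. Steers are the replicates, 1 array each, and their number limits the precision. Named genes are the 10 brighter genes with the smallest p and the 5 with the largest difference in each direction, up to 4 members per list, genes the study names and 5 microRNA genes. Further list members past the unadjusted threshold were named after their values were seen. The members and lists were chosen with earlier results of these data known. Alternatives were centring or quantile scaling of the arrays, features above the median level only, all deposited features, array weights, trended robust moderation or least squares without moderation, the 8 arrays of both groups alone, the average over a gene's clusters, and leaving out each of the 16 steers.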

Additional observations from a re-analysis of the deposited data

Results flagged for a closer look

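Of 76 groups of 4 steers in which the named genes were examined for a single distant animal, 4 held one, about as many as a rate of 1 in 20 gives. CPT2 had high-high replicate 4 at 10.13, with its group mates at 9.85 to 9.895. GPATCH1 had high-high replicate 3 at 11.04, with the others at 10.72 to 10.77. LOC780876 had high-high replicate 1 at 5.146, with the others at 7.659 to 7.914. PTGS2 had the same steer at 7.219, with the others at 7.992 to 8.078.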

How the results depend on the processing

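Over 24 alternative settings, 1 of 6513 values (274 named genes by setting) passed the adjusted threshold, which no named gene passed over all steers: DNAJA4 without low-low replicate 2 (-1.81, adjusted p 0.0156 in limma). The opposite sign occurred 94 times, in 45 genes, all at an unadjusted p of 0.05 or more. The number of features with an adjusted p under 0.05, 0 over all steers, lay between 0 and 1 when 1 steer was left out (1 without low-low replicate 2 and 1 without replicate 4 of that group), and so did the number for the difference between the 2 diagonals (0 to 1, with 1 without low-low replicate 4). The number at an unadjusted p under 0.05 was 1642 with array weights, 573 among features above the median level only (where fewer features are tested), and 857 to 1418 with 1 steer left out; the cause of the change with array weights was not tested, but high-high replicate 4 had the lowest weight (0.525). Centring shifted the median of all features by 0.0212 and the split to 627 higher and 453 lower. The list medians that moved by more than their spread were those of osmotic genes, -0.08 without high-high replicate 4 and -0.13 without low-low replicate 4, and of complement, 0.23 above the median level. No paired analysis was possible because the labels give no replicate numbers that tie steers of different groups. Values near the upper limit of the scale, 19.93 (44 features), and the 4 steers per group limit what can be read.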

Other observations

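A transcript cluster with no gene symbol in the tables used here had log2 values of 10.64, 10.9, 10.17 and 6.469 in the low-low animals and 6.697, 6.798, 6.883 and 6.7 in the high-high animals. It was high in 3 of 4 steers of the former group. Over all steers its difference was -2.78 (standard error 0.66) with a limma adjusted p of 1; without replicate 4 of the low-low group, the steer that went against the others, it was -3.80 with an adjusted p of 5.27e-08. That small p followed from leaving out the very steer that went against the difference, so it is no evidence of a group difference. The 4 low-low animals lay beyond all 12 other steers for 41 of 24997 features, and the 4 high-high animals for 20. Among so many features some lie so without any difference, and whether these counts exceed that was not tested.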
